A study of Saccharomyces cerevisiae with 32 samples.

Results

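The nuclear pore complex is the protein channel through the nuclear envelope by which RNA leaves the nucleus and proteins pass in and out. Its subunits, the nucleoporins, were followed here in 32 genes out of the 6696 open reading frames counted. The genes were chosen by name: all those called NUP, POM, MLP or GLE in the gene list used, with NSP1, NIC96, NDC1 and SEH1, and with NUP59 under its other name ASM4. All 32 systematic names were found in the tables and matched a gene record. Their names fixed the choice, which was made with earlier results of these data known.

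Transcript reads and reads of the mRNA pieces that ribosomes shield from nuclease (footprints) had been counted in 8 natural isolates of Saccharomyces cerevisiae, labelled CQC, BAN, AMH, BED, BTT, CPI, BPL and CMP. Every isolate carried the genotype label of wild type, was grown in SC medium (synthetic complete), and had 2 RNA libraries and 2 footprint libraries. The labels used here give neither origin nor ploidy, and they do not say that replicates were separate cultures. The p-values therefore reflect only how far these libraries differ, which may be technical. The question of the comparison was how far footprints follow mRNA across genetic backgrounds, which makes 3 quantities of interest: mRNA, footprints, and their ratio, called translation efficiency (TE).

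A pore is built from repeated subcomplexes stacked around a central axis. A Y-shaped coat complex and an inner ring form the scaffold, a membrane ring anchors it in the envelope, and nucleoporins rich in phenylalanine-glycine (FG) repeats line the channel and bind transport receptors. Fibres on the cytoplasmic side take part in the last step of mRNA export, and a basket on the nuclear side receives outgoing mRNA particles. Because the subunits are assembled in fixed proportions, the family is a natural place to ask whether the genes of 1 machine vary together.

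RNA libraries held 3703931 to 11570247 reads and footprint libraries 27621 to 4391002, with medians of 8871570 and 699724. The 2 footprint libraries of BAN were the shallowest, with 63336 and 27621 reads. The 32 genes took 0.207% to 0.713% of the reads in RNA libraries and 0.199% to 0.420% in footprint libraries, and all of them passed the filter on low counts in both assays. In 6 cases a gene had 0 footprint reads in a library: GLE1, NUP49, NUP53 and NUP60 in the second library of BAN, and NUP42 in the first of BAN and in the second of CMP. A count of 0 allows up to 109 CPM (reads per 1000000 reads of the library) in that library of BAN, 47.4 CPM in the first of BAN and 30.1 CPM in that of CMP, at 3 reads per library. These limits cover counting error only.

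Every pore gene differed in mRNA among the 8 isolates, and few did so in TE. By edgeR's quasi-likelihood F-test over the isolates, 32 of 32 were called at an adjusted p under 0.05 in mRNA, where 95.7% of all genes tested were called. In footprints 22 were called, against 73.1% of all genes, and in TE 8, against 29.2%, which went to 4 without the first footprint library of BAN. These shares are near the background in each layer. The median range between the highest and the lowest isolate was 1.505 on the log2 scale in mRNA for the pore genes and 2.01 for all genes, 1.57 and 2.33 in footprints, and 1.29 and 1.85 in TE. In mRNA the ranges ran from 0.49 for GLE1, an export factor of the cytoplasmic side, to 2.71 for NUP188, an inner ring scaffold protein. Depth differs between the assays: with each RNA library thinned to its footprint partner's total, 31 pore genes and 87.5% of all genes were called in mRNA.

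Pore genes stood mostly on 1 side of the other isolates in several backgrounds. Against the mean of the other 7 isolates, 24 were lower in CQC (37.1% of all genes were called lower) and 24 were lower in BAN (33%). By contrast, 25 were higher in BTT (32.8% called higher), 23 in BED (32.8%), 17 in CPI (31.4%) and 15 in AMH (33.4%). In the other direction, 3 were higher in CQC (35.6%), 1 in BAN (34%), and 2 were lower in BED (29.4%), 4 in CPI (22.4%) and 6 in AMH (30.4%). In BPL 11 were higher (27.6%) and 3 lower (19.1%), and in CMP 1 was higher (27.6%) and 8 lower (26.3%). The median log2 fold change over the 32 genes was -0.88 in CQC, -0.68 in BAN, -0.17 in CMP, 0.18 in AMH, 0.20 in BPL, 0.27 in CPI, 0.39 in BED and 0.59 in BTT. Over all genes tested the median lay between -0.02 in BED and 0.07 in BTT. The BPL calls went from 14 to 7 without its first RNA library and to 9 without its second, and the CMP calls from 9 to 5 without its first and to 14 without the second RNA library of BAN. The 8 contrasts share libraries, since each isolate is also among the others' comparison groups. In bulk cultures scaled to their own totals, fewer cells with a transcript and less transcript per cell cannot be told apart.

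**Figure D1:**
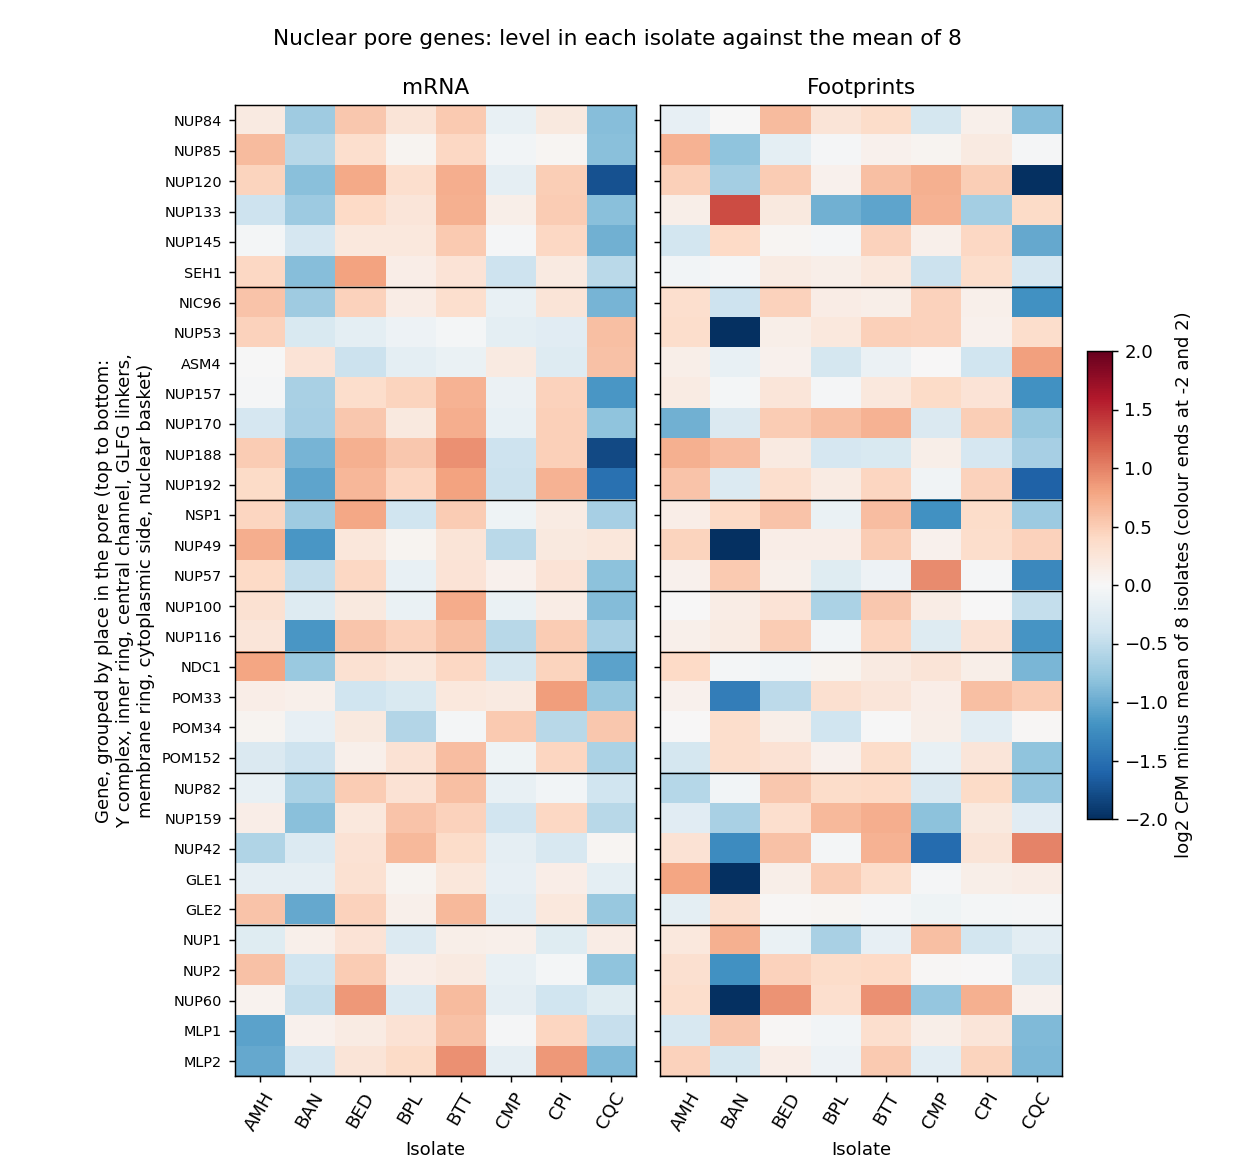
Level of each of the 32 pore genes in each isolate, for mRNA (left) and footprints (right), as log2 CPM minus the mean of the 8 isolates, where red is above and blue below that mean and the colour ends at -2 and 2. Rows are grouped by place in the pore and separated by black lines. The CQC column is mostly blue in both panels, the NUP133 row changes colour between the panels in BAN and BTT, and the darkest blue cells of BAN in footprints include 4 genes with 0 reads in its second library.

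Coding length moved with these counts. Pore genes are long: their median was 783.5 codons against 381 for all genes tested in mRNA, and 13 of 32 (40.6%) had at least 1000 codons against 8.31% of all genes. All genes of that length had a median mRNA log2 fold change of -0.56 in BAN, -0.44 in CMP, -0.36 in CQC, -0.33 in AMH, 0.22 in BED, 0.34 in BPL, 0.61 in BTT and 0.64 in CPI. The 13 long pore genes had medians of -0.75 in BAN, -0.17 in CMP, -0.96 in CQC, -0.04 in AMH, 0.40 in BED, 0.38 in BPL, 0.80 in BTT and 0.55 in CPI. With a trend fitted on coding length taken out of every library, CQC still had 24 lower (36.7% of all genes in that fit), of which 22 were lower in both fits, and BED 18 of its 23 higher (32.3%). In AMH 18 were then higher (33.7%) and 3 lower (29.3%). BAN went to 7 higher (36.1%) and 12 lower (30.4%), these 12 among its 24, with 3 genes called in opposite directions. BTT went to 11 higher (29.8%) and 3 lower (20.6%), with 2 such genes. The BAN share of lower genes and the BTT share of higher genes are then near the background. In CPI the balance turned to 5 higher (30.1%) and 14 lower (23.9%), with 9 genes called in opposite directions by the fits, and in CMP to 14 higher (29%) and 3 lower (24%), with 3 such genes. In BPL it went to 6 higher (25.4%) and 6 lower (19.8%). The balance of higher and lower genes in CPI, CMP and BPL thus changed with how length was treated, and the part of length in the results was not tested further. The trend taken out could exceed the median of genes of like length. In CPI, NUP116, NUP120 and NUP133 were at 0.57, 0.57 and 0.58, above the median of 0.46 for all genes around 1102 codons. With the trend removed they were at -0.17, -0.05 and -0.22. The 13 long pore genes in CPI had a median only slightly below that of all long genes (0.55 and 0.64). The turned balance in CPI is therefore no measure of pore genes against genes of like length.

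**Figure D2:**
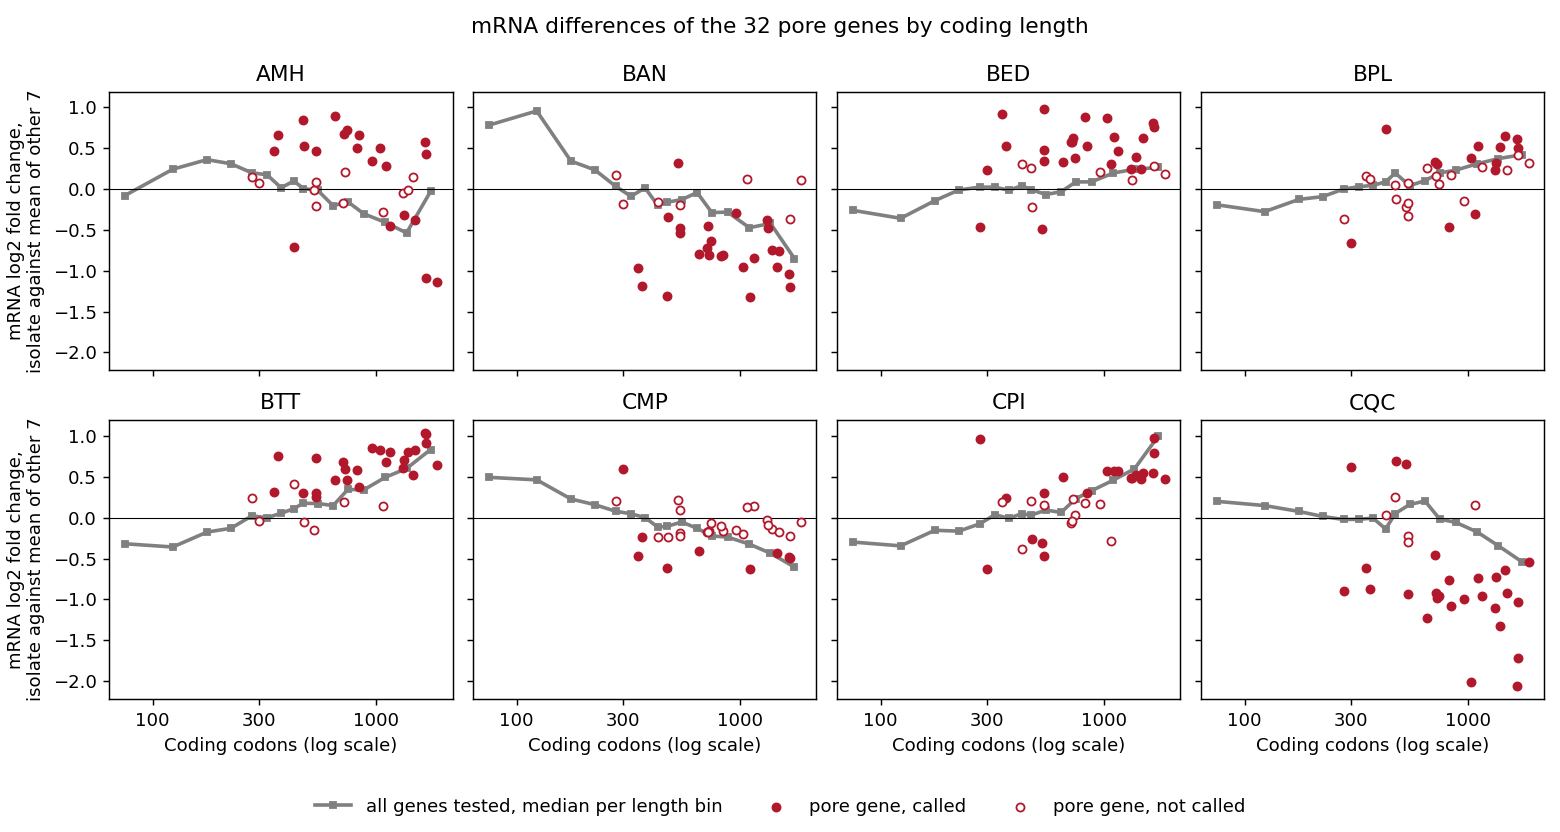
mRNA log2 fold change of an isolate relative to its 7 counterparts, plotted against coding codons on a log axis, in 1 panel per isolate. Filled red points are pore genes called at an adjusted p under 0.05, open points are those not called, and grey squares joined by lines are medians of all genes tested in bins of length. In BTT and CPI the long pore genes lie along the rising grey line, whereas in CQC most of them lie below it.

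In CQC the deepest mRNA deficits were in scaffold genes. NUP188 was at 46.5 CPM against 247 in the others (log2 fold change -2.06, SE 0.12, adjusted p = 1.2e-09). NUP120, a Y complex subunit, was at 29.2 against 145 CPM (-2.01, SE 0.11, adjusted p = 5.79e-10), and NUP192, the largest inner ring scaffold protein, at 57.8 against 242 CPM (-1.71, SE 0.12, adjusted p = 8.85e-09). Both CQC libraries lay below all 14 others in CPM for NUP188 and NUP120, while for NUP192 the second BAN library, at 53.7 CPM, was lower still. With the length trend removed the values were -1.51 for NUP188, -1.84 for NUP120 and -1.15 for NUP192. The median over all genes of the same chromosome was 0.04 on chromosome XIII with NUP188, 0.02 on XI with NUP120 and -0.20 on X with NUP192. By place, all 6 Y complex genes of the set were lower in CQC (against 37.1% of all genes). So were 5 of 7 in the inner ring, 2 of 3 in the central channel and both GLFG linkers. In the membrane ring it was 3 of 4, and 3 of 5 on each of the cytoplasmic side and the nuclear basket. By length, the medians were -0.96 for the 13 long genes, -0.93 for the 12 of middle length and 0.03 for the 7 under 500 codons. Of the 24 lower genes, 14 were called lower under every alternative tried, libraries left out included.

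In CQC 3 genes went the other way. NUP53 and ASM4, paralogous inner ring proteins that contact the membrane, were higher by 0.70 (SE 0.09, adjusted p = 6.92e-06) and 0.66 (SE 0.10, adjusted p = 2.78e-05), with the ASM4 libraries above all 14 others and those of NUP53 overlapping AMH. POM34, a membrane ring protein, was higher by 0.62 (SE 0.09, adjusted p = 1.61e-05), though its CQC libraries overlapped the rest. The 3 genes have 475, 528 and 299 codons, and their values with the length trend removed were 0.64, 0.58 and 0.65.

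BAN was low in genes of several rings. NUP116, a GLFG-repeat linker, stood at 51.7 CPM against 168 in the others (log2 fold change -1.32, SE 0.13, adjusted p = 7.43e-07), and NUP49, an FG nucleoporin of the channel, at 22.3 against 69.0 CPM (-1.31, SE 0.16, adjusted p = 5.09e-06). Their BAN libraries were below all others. NUP192 was lower by 1.20 (log2 fold change -1.20, SE 0.12, adjusted p = 6.45e-07), but with the length trend removed its value was -0.10 and it was no longer called. NUP116 kept its call there at -0.63 and NUP49 at -1.16. With libraries thinned to footprint depth NUP192 was at -0.55 and not called. ASM4 was the gene called higher in BAN, by 0.32 (0.47 without the length trend).

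AMH and BED had more genes high than low. In AMH, NDC1, a membrane protein of pores and spindle pole bodies, was at 98.9 CPM against 59.0 (log2 fold change 0.90, SE 0.11, adjusted p = 6.98e-06) and above all other libraries. MLP1 and MLP2, which encode the filaments of the basket, were lower there by 1.14 (log2 fold change -1.14, SE 0.20, adjusted p = 0.00016) and 1.09 (-1.09, SE 0.21, adjusted p = 0.00032). The AMH libraries disagreed on both. Without the first, the values were -1.74 and -1.71, and without the second -0.71 and -0.65. BED was highest relative to the others in NUP60, a basket nucleoporin (0.98, SE 0.12, adjusted p = 9.28e-06), in SEH1, a Y complex subunit also found in a vacuolar signalling complex (0.92, SE 0.09, adjusted p = 4.42e-07), and in NSP1, the FG nucleoporin shared by channel and cytoplasmic side (0.88, SE 0.09, adjusted p = 1.27e-06). Both BED libraries were above all others for SEH1 and NSP1, while for NUP60 the first BTT library, at 157 CPM, was higher.

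In BTT, NUP188 (1.04, SE 0.09, adjusted p = 3.86e-07), MLP2 (1.02, SE 0.17, adjusted p = 0.000172) and NUP192 (0.92, SE 0.09, adjusted p = 2.1e-06) were the largest, and their values turned to -0.06, -0.08 and -0.20 with the length trend removed. In CPI the largest were MLP2 (0.98, SE 0.17, adjusted p = 0.000245), POM33, a membrane protein of the pore (0.96, SE 0.16, adjusted p = 0.000186), and NUP192 (0.80, SE 0.10, adjusted p = 8.28e-06). MLP2 and NUP192 turned to -0.38 and -0.58 without the trend, while POM33, with 279 codons, went to 1.12. In BPL, NUP42, an FG nucleoporin of the cytoplasmic side, was higher by 0.73 (SE 0.21, adjusted p = 0.0105), POM34 was lower (-0.67, SE 0.10, adjusted p = 7.87e-05), and NUP159, a cytoplasmic filament protein that binds the export helicase Dbp5, was higher by 0.65 (SE 0.08, adjusted p = 1.09e-05). NUP42 was not called without the second BPL library, at 0.56. In CMP, NUP116 (-0.62, SE 0.12, adjusted p = 0.000534) and NUP49 (-0.62, SE 0.14, adjusted p = 0.0017) were lower and POM34 higher (0.60, SE 0.09, adjusted p = 6.24e-05). With the length trend removed NUP116 in CMP was at -0.07 and not called, and with libraries thinned to footprint depth NUP116, NUP49 and POM34 in CMP (-0.33, 0.61 and 0.19) and NUP42 in BPL (0.66) were not called. The direction of NUP49 was turned there.

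Of the Y complex, which forms the outer scaffold, the set holds NUP84 (YDL116W), NUP85 (YJR042W), NUP120 (YKL057C), NUP133 (YKR082W), NUP145 (YGL092W) and SEH1 (YGL100W). SEC13 was not in the set by its name and is counted below with pore assembly and partners. The product of NUP145 is cleaved into separate N- and C-terminal nucleoporins. NUP120 lies on chromosome XI, 330856 to 333969 (R64 assembly), and varied most in mRNA. NUP120 mRNA levels in CPM, first and second library, were 225 and 197 in BTT, 199 and 207 in BED, 155 and 144 in AMH and 149 and 159 in CPI. They were 171 and 148 in BPL, 91.9 and 85.1 in CMP, 62.7 and 41.8 in BAN and 31.1 and 27.3 in CQC. Only the CQC libraries are under 35 CPM, and the libraries of CQC and BAN do not reach the range of the other 6 isolates. NUP120 footprint levels in CPM, first and second library, were 95.1 and 78.3 in BTT, 69.8 and 68.1 in BED, 80.2 and 60.8 in AMH and 65.3 and 84.2 in CPI. They were 62.5 and 47.03 in BPL, 68.9 and 160.3 in CMP, 47.4 and 36.2 in BAN and 8.03 and 14.5 in CQC. Both CQC footprint libraries again lie below all others, and the 2 CMP libraries differ from each other by more than the other pairs do.

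The inner ring comprises NIC96 (YFR002W), NUP53 (YMR153W), ASM4 (YDL088C), NUP157 (YER105C), NUP170 (YBL079W), NUP188 (YML103C) and NUP192 (YJL039C), and links the outer coat to the channel. NUP188 lies on chromosome XIII, 62582 to 67549. NUP188 mRNA levels in CPM, first and second library, were 406 and 382 in BTT, 318 and 328 in BED, 274 and 241 in AMH and 245 and 253 in CPI. They were 297 and 305 in BPL, 115 and 131 in CMP, 104 and 59.9 in BAN and 48.8 and 44.2 in CQC. CQC is lowest, with BAN above it and CMP next. NUP188 footprint levels in CPM, first and second library, were 167 and 121 in BTT, 169 and 172 in BED, 346 and 189.5 in AMH and 135 and 122 in CPI. They were 127 and 128 in BPL, 234 and 200.4 in CMP, 379 and 289.6 in BAN and 104 and 123 in CQC. Here BAN, CMP and AMH hold the 6 highest libraries, which is not the order of their mRNA.

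NUP53 and ASM4 are the first paralog pair of the inner ring. NUP53 mRNA levels in CPM, first and second library, were 138 and 132 in BTT, 113 and 115 in BED, 167 and 164 in AMH and 97.2 and 105 in CPI. They were 141 and 116 in BPL, 98.4 and 90.6 in CMP, 87.1 and 74.8 in BAN and 170.2 and 157 in CQC. It was highest in AMH and CQC. ASM4 mRNA levels in CPM, first and second library, were 123 and 102 in BTT, 86.6 and 86.3 in BED, 106 and 104 in AMH and 83.8 and 91.4 in CPI. They were 102 and 111 in BPL, 121 and 99.4 in CMP, 115 and 99.6 in BAN and 151 and 135 in CQC. ASM4 was highest in CQC, with no overlap. Per coding length, the ratio of NUP53 to ASM4 mRNA ran from 0.840 in BAN to 1.74 in AMH, and in footprints from 0.613 in BAN to 1.51 in BTT, with 4 and 6 footprint reads behind the BAN value. NUP53 footprint levels in CPM, first and second library, were 64.5 and 59.7 in BTT, 38.2 and 43.2 in BED, 37.2 and 66.99 in AMH and 38.6 and 48.4 in CPI. They were 49.99 and 44.1 in BPL, 68.9 and 70.1 in CMP, 63.2 and 0 in BAN and 92.4 and 36.3 in CQC. The 2 libraries of BAN and of CQC are far apart. ASM4 footprint levels in CPM, first and second library, were 52.98 and 38.7 in BTT, 42.1 and 47.8 in BED, 51.5 and 43.2 in AMH and 29.5 and 40.01 in CPI. They were 28.1 and 43.1 in BPL, 103 and 30.1 in CMP, 78.9 and 36.2 in BAN and 84.3 and 97.99 in CQC. Footprint replicates of these genes spread widely in the shallow isolates.

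NUP157 and NUP170 are the other pair, of long scaffold proteins. NUP157 mRNA levels in CPM, first and second library, were 335 and 316 in BTT, 239 and 239.7 in BED, 195 and 149 in AMH and 235 and 232 in CPI. They were 276 and 265 in BPL, 153 and 136 in CMP, 112 and 73.98 in BAN and 76.8 and 61.96 in CQC. CQC and BAN are lowest and BTT highest. NUP170 mRNA levels in CPM, first and second library, were 372 and 338 in BTT, 300.3 and 289 in BED, 172 and 126 in AMH and 246 and 267 in CPI. They were 245 and 245 in BPL, 159 and 145 in CMP, 120.0 and 79.4 in BAN and 97.9 and 93.03 in CQC. In mRNA both were lowest in CQC and BAN, and their ratio per coding length stayed between 0.785 in CQC and 1.25 in AMH. NUP157 footprint levels in CPM, first and second library, were 98.6 and 89.3 in BTT, 90.9 and 73.6 in BED, 106 and 60.8 in AMH and 81.4 and 101 in CPI. They were 74.99 and 69.6 in BPL, 131 and 110.2 in CMP, 126 and 72.4 in BAN and 36.1 and 32.7 in CQC. Only CQC lies apart, below all others. NUP170 footprint levels in CPM, first and second library, were 98.3 and 82.4 in BTT, 85.6 and 53.4 in BED, 20.04 and 28.2 in AMH and 63.2 and 82.8 in CPI. They were 84.4 and 70.5 in BPL, 27.6 and 90.2 in CMP, 78.9 and 36.2 in BAN and 20.1 and 50.8 in CQC. The footprint ratio ran from 1.01 in BPL to 3.80 in AMH. AMH footprints of NUP170 were lower than in the other isolates (log2 fold change -1.07, SE 0.31, adjusted p = 0.00835), and without the first BAN footprint library this was -0.88 and not called.

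The central channel is lined by NSP1 (YJL041W), NUP49 (YGL172W) and NUP57 (YGR119C), which form a trimer of FG nucleoporins. NUP49 mRNA levels in CPM, first and second library, were 88.6 and 73.2 in BTT, 79.1 and 69.5 in BED, 86.3 and 107 in AMH and 67.6 and 62.8 in CPI. They were 71.8 and 66.1 in BPL, 39.8 and 32.7 in CMP, 29.02 and 15.7 in BAN and 57.7 and 63.7 in CQC. BAN is lowest in mRNA and CMP next. NUP49 footprint levels in CPM, first and second library, were 80.1 and 79.7 in BTT, 51.4 and 53.4 in BED, 85.9 and 52.9 in AMH and 65.98 and 67.4 in CPI. They were 60.9 and 50.95 in BPL, 75.8 and 60.1 in CMP, 94.7 and 0 in BAN and 100.4 and 61.7 in CQC. NUP49 was not called in footprints (adjusted p = 0.63 over the isolates). With RNA libraries thinned to footprint depth, its mRNA call in BAN was kept, but at a value of -9.24 against -1.31 in the main fit. The thinned BAN libraries are as shallow as its footprint libraries (63336 and 27621 reads). The thinned value is therefore no measure of the size of the difference.

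The GLFG linkers NUP100 (YKL068W) and NUP116 (YMR047C) are paralogs that connect scaffold and channel. NUP116 mRNA levels in CPM, first and second library, were 242 and 229.8 in BTT, 232 and 202 in BED, 154 and 166 in AMH and 189 and 188 in CPI. They were 212 and 214 in BPL, 95.95 and 72.1 in CMP, 66.1 and 37.3 in BAN and 86.5 and 67.9 in CQC. BAN is lowest, and CQC and CMP overlap above it. NUP100 mRNA levels in CPM, first and second library, were 245 and 194 in BTT, 139.6 and 139 in BED, 134 and 143 in AMH and 118 and 128 in CPI. They were 127 and 109 in BPL, 104 and 83.00 in CMP, 89.99 and 67.8 in BAN and 53.96 and 56.5 in CQC. NUP116 was lowest in BAN and NUP100 in CQC, so their mRNA ratio per coding length, NUP100 over NUP116, ran from 0.645 in BPL to 1.77 in BAN. NUP116 footprint levels in CPM, first and second library, were 109 and 90.9 in BTT, 96.1 and 85.6 in BED, 83.02 and 59.9 in AMH and 87.04 and 81.4 in CPI. They were 68.7 and 61.7 in BPL, 96.4 and 50.1 in CMP, 94.7 and 109 in BAN and 32.1 and 32.7 in CQC. CQC is lowest and does not overlap the rest. NUP100 footprint levels in CPM, first and second library, were 97.99 and 68.3 in BTT, 53.99 and 63.5 in BED, 40.1 and 60.8 in AMH and 49.8 and 55.5 in CPI. They were 31.2 and 33.3 in BPL, 62.00 and 80.2 in CMP, 78.9 and 72.4 in BAN and 32.1 and 50.8 in CQC. In footprints the ratio ran from 0.574 in BPL to 1.49 in CQC.

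The membrane ring consists of NDC1 (YML031W), POM33 (YLL023C), POM34 (YLR018C) and POM152 (YMR129W). NDC1 mRNA levels in CPM, first and second library, were 88.6 and 86.8 in BTT, 76.9 and 76.02 in BED, 107 and 91.2 in AMH and 75.3 and 77.96 in CPI. They were 78.2 and 75.5 in BPL, 42.1 and 38.9 in CMP, 41.5 and 19.2 in BAN and 21.1 and 27.7 in CQC. AMH is highest, and the CQC, BAN and CMP libraries overlap at the low end. NDC1 footprint levels in CPM, first and second library, were 61.6 and 50.6 in BTT, 38.2 and 43.2 in BED, 77.3 and 43.2 in AMH and 51.9 and 48.4 in CPI. They were 46.9 and 47.03 in BPL, 75.8 and 60.1 in CMP, 47.4 and 72.4 in BAN and 36.1 and 18.1 in CQC. Footprints of NDC1 were not called over the isolates (adjusted p = 0.19). In CQC alone they were lower by edgeR (-1.04, SE 0.36, adjusted p = 0.0193), but not without the second CQC footprint library (-0.60).

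POM33 lies on chromosome XII, 97997 to 98836, and has a paralog outside the set, PER33, that acts at the nuclear envelope and the endoplasmic reticulum. POM33 mRNA levels in CPM, first and second library, were 48.6 and 51.5 in BTT, 28.9 and 32.4 in BED, 39.7 and 41.9 in AMH and 72.4 and 59.9 in CPI. They were 34.2 and 34.5 in BPL, 42.9 and 34.2 in CMP, 26.8 and 40.5 in BAN and 19.3 and 19.7 in CQC. CPI is highest and CQC lowest. PER33 mRNA levels in CPM, first and second library, were 29.3 and 28.8 in BTT, 31.2 and 31.6 in BED, 35.9 and 40.2 in AMH and 24.9 and 21.00 in CPI. They were 24.2 and 22.6 in BPL, 52.2 and 47.2 in CMP, 52.9 and 65.6 in BAN and 17.3 and 15.4 in CQC. PER33 was highest in BAN and lowest in CQC. POM33 footprint levels in CPM, first and second library, were 162 and 188 in BTT, 98.8 and 78.2 in BED, 155 and 126 in AMH and 226 and 195 in CPI. They were 170.3 and 169 in BPL, 214 and 160.3 in CMP, 63.2 and 72.4 in BAN and 209 and 225 in CQC. BAN is lowest, with 6 reads in all, and BED next. PER33 footprint levels in CPM, first and second library, were 54.9 and 50.1 in BTT, 39.5 and 47.8 in BED, 91.6 and 76.7 in AMH and 40.7 and 40.7 in CPI. They were 67.2 and 58.8 in BPL, 82.7 and 80.2 in CMP, 78.9 and 109 in BAN and 44.2 and 47.2 in CQC. The ratio of POM33 to PER33 per coding length ran from 0.555 in BAN to 2.82 in CPI in mRNA, and from 0.708 in BAN to 5.06 in CPI in footprints. It was above 1 in footprints in 7 of 8 isolates.

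On the cytoplasmic side are NUP82 (YJL061W), NUP159 (YIL115C), NUP42 (YDR192C), GLE1 (YDL207W) and GLE2 (YER107C). GLE2 is an mRNA export factor that binds NUP116. GLE2 mRNA levels in CPM, first and second library, were 109 and 107 in BTT, 85.6 and 91.5 in BED, 89.8 and 86.5 in AMH and 68.6 and 65.9 in CPI. They were 77.02 and 68.8 in BPL, 46.3 and 46.3 in CMP, 26.8 and 21.3 in BAN and 33.7 and 28.6 in CQC. BAN is lowest in mRNA and BTT highest. GLE2 footprint levels in CPM, first and second library, were 47.2 and 39.6 in BTT, 43.5 and 34.05 in BED, 22.9 and 50.2 in AMH and 37.9 and 42.1 in CPI. They were 46.9 and 37.2 in BPL, 55.1 and 40.1 in CMP, 63.2 and 72.4 in BAN and 32.1 and 61.7 in CQC. The footprint values do not separate the isolates (adjusted p = 0.996), and in footprints GLE2 had the smallest range of the 32 genes, 0.50 on the log2 scale against 1.68 in mRNA.

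The nuclear basket holds NUP1 (YOR098C), NUP2 (YLR335W), NUP60 (YAR002W), MLP1 (YKR095W) and MLP2 (YIL149C). MLP1 and MLP2 are long coiled-coil paralogs of 1875 and 1679 codons. MLP2 mRNA levels in CPM, first and second library, were 323 and 303 in BTT, 186 and 190.2 in BED, 106 and 47.1 in AMH and 254 and 266 in CPI. They were 209 and 223 in BPL, 114 and 117 in CMP, 138 and 64.8 in BAN and 75.4 and 64.2 in CQC. BTT is highest, and AMH, CQC and BAN overlap at the low end. MLP1 mRNA levels in CPM, first and second library, were 444 and 442 in BTT, 324 and 303 in BED, 180.3 and 82.03 in AMH and 324 and 354 in CPI. They were 359 and 359 in BPL, 235 and 219.9 in CMP, 229 and 224 in BAN and 176 and 157 in CQC. In both genes the AMH libraries differ by over 2-fold, and BTT is highest. MLP2 footprint levels in CPM, first and second library, were 37.7 and 38.3 in BTT, 25.02 and 23.9 in BED, 42.9 and 23.8 in AMH and 30.2 and 37.2 in CPI. They were 23.4 and 20.6 in BPL, 20.7 and 30.1 in CMP, 15.8 and 36.2 in BAN and 12.05 and 14.5 in CQC. CQC is lowest, and the other isolates overlap. MLP1 footprint levels in CPM, first and second library, were 81.4 and 63.1 in BTT, 50.04 and 47.8 in BED, 83.02 and 18.5 in AMH and 58.96 and 65.98 in CPI. They were 57.8 and 43.1 in BPL, 68.9 and 70.1 in CMP, 94.7 and 109 in BAN and 28.1 and 32.7 in CQC. MLP1 exceeded MLP2 per coding length in every isolate, from 1.17-fold in CPI to 2.14-fold in CQC in mRNA and from 1.38-fold in AMH to 3.51-fold in BAN in footprints, the BAN value resting on 9 and 2 reads.

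Footprints carried part of the mRNA differences, and not in every isolate. Their median log2 fold change over the 32 genes was -0.66 in CQC, 0.34 in BTT, 0.22 in BED and 0.14 in CPI. It was 0.12 in AMH, 0.09 in CMP, 0.01 in BAN and -0.05 in BPL. CMP, BAN and BPL had mRNA medians of -0.17, -0.68 and 0.20. Over all genes the footprint median lay between -0.08 in BAN and 0.10 in BTT. The TE median of the pore genes in BAN was 0.71, and -0.13 with the length trend removed. In CQC 13 pore genes were lower in footprints (23.3% of all genes called lower) and 2 higher (26.2%). In BTT 12 were higher (18.7%) and 1 lower (13.2%), in BED 7 higher (20.8%) and 1 lower (13.8%), and in AMH 4 higher (19.9%) and 1 lower (14%). CPI had 4 higher (17.7%) and 1 lower (12%), BPL 1 higher (16.1%) and 3 lower (9.05%), CMP 2 higher (11.4%) and 1 lower (7.29%), and BAN 1 higher (3.25%) and 1 lower (0.954%). With the length trend removed, CPI turned to 1 higher (17.7%) and 3 lower (12.1%), and BPL went to 3 higher (17%) and 3 lower (9.41%). BTT then had 9 higher (18.2%) and 2 lower (13.3%), and CQC 2 higher (26.1%) and 10 lower (22.8%). AMH had 7 higher (20.5%) and 1 lower (13.5%), and BED 7 higher (20.8%) and 1 lower (14%). CMP had 2 higher (11.5%) and 2 lower (7.26%), and BAN 1 higher (3.1%) and 0 lower (0.916%). The main counts rest on few libraries. CQC went from 15 calls to 9 without its first footprint library, BTT from 13 to 8 without either of its own, and BED from 8 to 3 without either. AMH went from 5 to 8 without its first and to 2 without its second, and BPL from 4 to 2 and to 1. CPI went from 5 to 3 without its first and to 1 without its second, and to 8 and 9 without the second library of AMH and of CMP. BAN went from 2 to 1 without its first library. By edgeR, BAN without its second library and CMP without its second had 0 calls, with 3 genes at an unadjusted p under 0.05 in each, and DESeq2 was not run on these. Of 48 pairs of gene and isolate called in both layers, 44 (91.7%) had the same direction and 4 the opposite, and over all genes 9945 of 10319 such pairs (96.4%) had the same direction.

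The largest footprint changes in CQC were those of NUP120 (log2 fold change -2.66, SE 0.46, adjusted p = 2.14e-05, at 11.3 against 73.2 CPM), NUP192 (-1.80, SE 0.35, adjusted p = 8.47e-05) and NUP157 (-1.47, SE 0.30, adjusted p = 0.000198). They remained called without the length trend, at -2.38, -1.27 and -1.02. NUP188, the gene with the deepest mRNA deficit in CQC, had a footprint log2 fold change of -0.77 (SE 0.23, adjusted p = 0.00568), and was not called with the length trend removed (-0.24) or without the first CQC footprint library (-0.72). ASM4, called higher in CQC mRNA, was also higher in its footprints (0.86, SE 0.28, adjusted p = 0.0141), though not without either CQC library (0.90 and 0.76).

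Other isolates had single genes called in footprints. In AMH, NUP188 (0.79, SE 0.16, adjusted p = 0.000357) and NUP85, a Y complex subunit (0.76, SE 0.21, adjusted p = 0.00675) were higher. Without the first AMH footprint library NUP188 was at 0.48, and without the second NUP85 was not called, at 0.80. In BED, NUP60 (0.89, SE 0.28, adjusted p = 0.0135), NUP84, a Y complex subunit (0.76, SE 0.18, adjusted p = 0.00185) and NSP1 (0.62, SE 0.16, adjusted p = 0.00423) were higher. NUP60 was not called without either BED footprint library (0.92 and 0.86). Without BAN, left out after seeing the data, NUP60 was at 0.55 and not called. NUP84 was not called without the second BED library (0.63), and NSP1 not without the first (0.59). In BTT, NUP60 (0.91, SE 0.23, adjusted p = 0.00324) and NUP159 (0.75, SE 0.16, adjusted p = 0.000745) were higher. Without the first BAN library, NUP60 was at 1.74 in BED and 1.82 in BTT, but BAN then keeps only a library with 0 NUP60 reads. In BPL, NUP100 (-0.79, SE 0.25, adjusted p = 0.0205) and NUP1, a basket FG nucleoporin (-0.77, SE 0.23, adjusted p = 0.0139) were lower, neither being called without either BPL library (NUP100 at -0.72 and -0.87, NUP1 at -0.77 and -0.76), and NUP100 not without the first BAN one (-0.75). In CMP, NSP1 was lower (-1.35, SE 0.34, adjusted p = 0.00582) and NUP57, a channel subunit, higher (1.07, SE 0.27, adjusted p = 0.00467), and neither was called without the second CMP library (-1.11 and 0.88). In CPI, POM33 (0.70, SE 0.15, adjusted p = 0.000531) and NUP120 (0.58, SE 0.20, adjusted p = 0.0284) were higher, NUP120 not being called without the second CPI library (0.44) or with the length trend removed (0.40). POM33 in BAN was lower (-1.62, SE 0.45, adjusted p = 0.037), on 4 and 2 reads, and was not called without either BAN library (-1.67 and -1.66), with the length trend removed (-1.44) or by DESeq2 (-1.62).

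The slope of footprint on mRNA deviations was 0.576 (jackknife SE 0.154 over isolates) for the 32 pore genes and 0.599 (SE 0.0978) for all 5337 genes tested in TE. A slope of 1 would mean that footprints moved as much as mRNA and 0 that they did not move with it. The variance of footprint deviations was 0.648 of that of mRNA for the pore genes and 0.631 for all genes. Leaving out CQC gave a slope of 0.422, and leaving out NUP133 gave 0.636. Within genes, the correlation of the 2 layers over the 8 isolates, a description with library depth shared by all genes, had a median of 0.637 for the pore genes and 0.706 for all. It was negative for NUP133 (-0.724) and GLE2 (-0.647), and highest for NUP120 (0.914). Between pairs of pore genes, the correlation over isolates had a median of 0.626 in mRNA and 0.224 in footprints. No such value was computed for all genes or for genes of like length. The footprint value also holds the counting error of shallow libraries, so the 2 medians do not show whether pore genes vary together more than others.

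**Figure D3:**
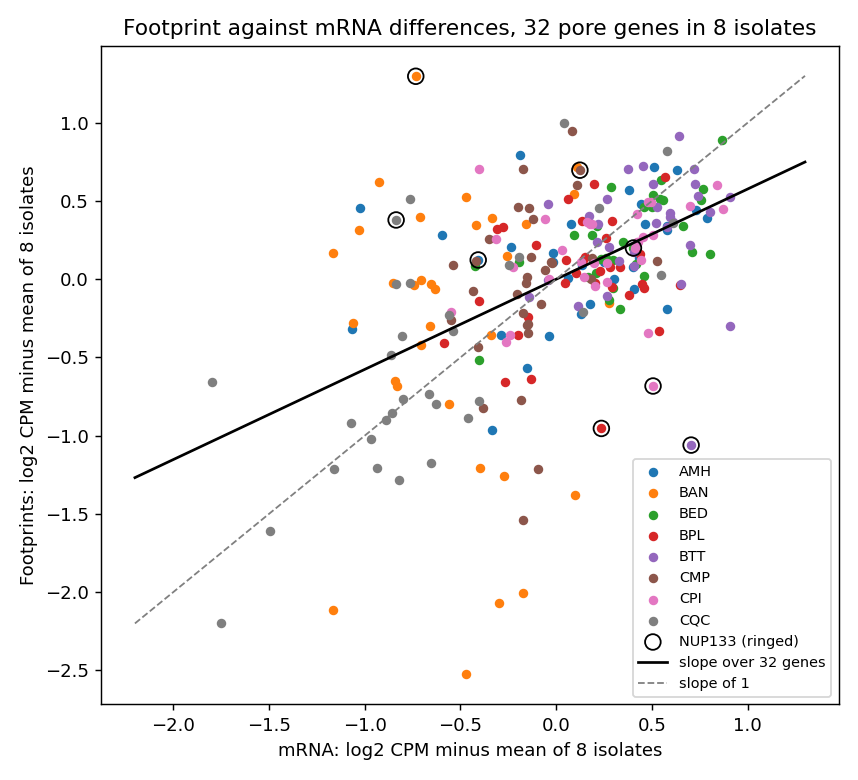
Footprint deviation against mRNA deviation of each pore gene in each isolate, both as log2 CPM minus the mean of the 8 isolates, with 1 colour per isolate. The solid line has the slope over the 32 genes (0.576), the dashed line a slope of 1, and black rings mark NUP133, whose points run against the solid line.

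TE differed among isolates for 8 pore genes: NUP133, NUP188, NUP157 and SEH1 of the scaffold, NUP57 and NSP1 of the channel, POM33 of the membrane ring and GLE2 of the cytoplasmic side. In all 8 the TE deviations ran against the mRNA deviations, as in 90.8% of all genes called in both, and mRNA enters both quantities. NUP133, NUP188 and POM33 were called over the isolates under each alternative tried, libraries left out included. The other 5 were not called under at least 1 of them. SEH1 reached an adjusted p of up to 0.0989, NUP157 0.588, NSP1 0.0641, NUP57 0.0847 and GLE2 0.113. By isolate, TE calls in pore genes were few: 4 higher in CQC (8.19% of all genes), 4 lower in BTT (5.15%), 3 higher and 1 lower in BAN (7.14% and 6.76%), 2 higher and 1 lower in CMP (3.71% and 1.82%), 1 higher and 2 lower in CPI (1.16% and 3.65%), 2 lower in BPL (3.28%), 1 lower in BED (2.77%) and 1 higher in AMH (3.49%). Without the first footprint library of BAN, its calls went from 4 to 1 and those of BTT to 2, and without the second those of BAN to 2. BTT also went to 2 without its first RNA or second footprint library. BPL went to 1 without its second footprint library and to 4 without the first RNA library of BAN, and CMP to 1 without its first footprint library. The calls in AMH, BED, CMP and CPI each went to 0 by edgeR without some library of the isolate itself, with 2 to 6 genes at an unadjusted p under 0.05, and DESeq2 was not run on these. Those libraries were the first footprint library of AMH, the second RNA and first footprint ones of BED, the first RNA and second footprint ones of CMP, and the second footprint one of CPI. BED also had 0 calls without the first footprint library of BAN, with 4 genes at such a p. The other libraries left out gave 1 to 3 calls in AMH and 1 or 2 in BED.

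NUP133, the Y complex subunit that ties the coat to the membrane, had the widest TE range, 3.80 on the log2 scale (adjusted p = 1.27e-07 over the isolates). It lies on chromosome XI, 592825 to 596298. NUP133 mRNA levels in CPM, first and second library, were 346 and 308 in BTT, 244 and 254 in BED, 160.2 and 106 in AMH and 233 and 253 in CPI. They were 248 and 219.9 in BPL, 169 and 173 in CMP, 105 and 71.01 in BAN and 87.8 and 85.4 in CQC. CQC and BAN have the lowest mRNA and BTT the highest. NUP133 footprint levels in CPM, first and second library, were 245 and 118 in BTT, 312 and 398 in BED, 464 and 257 in AMH and 229 and 187 in CPI. They were 173 and 164 in BPL, 606 and 721 in CMP, 695 and 1665 in BAN and 469.9 and 486 in CQC. Footprints had another order, with BAN and CMP highest. Against the other isolates, its footprints were higher in BAN (1.47, SE 0.29, adjusted p = 0.00153) and CMP (0.78, SE 0.24, adjusted p = 0.0225), and lower in BTT (-1.15, SE 0.22, adjusted p = 0.000159), BPL (-1.11, SE 0.23, adjusted p = 0.000767) and CPI (-0.78, SE 0.22, adjusted p = 0.00709). The BAN value was 0.90 and not called without its second library, the BTT value -0.74 without its second, and the CPI value -0.60 and not called without its second. The CMP value was not called without either of its libraries, at 0.93 and 0.62. Its mRNA calls in the opposite direction, -0.84 in BAN, 0.81 in BTT and 0.58 in CPI, were lost with the length trend removed, at -0.10, 0.12 and -0.22.

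NUP133 footprints moved with library depth. The 7 footprint libraries under 500000 reads had 464 to 1665 CPM of NUP133 and the 9 above had 118 to 398 CPM, with no overlap, and the gene took 4.72% to 39.7% of all footprint reads on pore genes. Over the 16 footprint libraries, which come in pairs of 1 isolate, Spearman's rho with depth was -0.859, the most negative of the 32 genes. Depth and isolate cannot be fully told apart here, since only AMH has libraries on both sides of that limit (349307 and 1134437 reads). Within isolates, the shallower library had more NUP133 CPM in AMH, BAN, BTT, CMP and BPL, and less in BED and CQC. The CPI libraries were near equal in depth (1424593 and 1424639 reads). The part of depth was not tested. For NUP188 the ranges overlap, 104 to 379 CPM in the shallow libraries and 121 to 190 CPM in the deep ones, with rho at -0.529. NUP60 had the most positive rho of the 32 genes, 0.747, and the part of depth in its calls was not tested. TE of NUP133 was higher in BAN (2.31, SE 0.34, adjusted p = 2.13e-05) and CQC (1.38, SE 0.29, adjusted p = 0.00244), and lower in BTT (-1.96, SE 0.27, adjusted p = 1.7e-05), BPL (-1.38, SE 0.28, adjusted p = 0.00342) and CPI (-1.36, SE 0.27, adjusted p = 0.00264). The BAN value was 1.48 without the length trend, and BPL and CPI were not called without their second footprint library (-1.36 and -1.18).

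**Figure D4:**
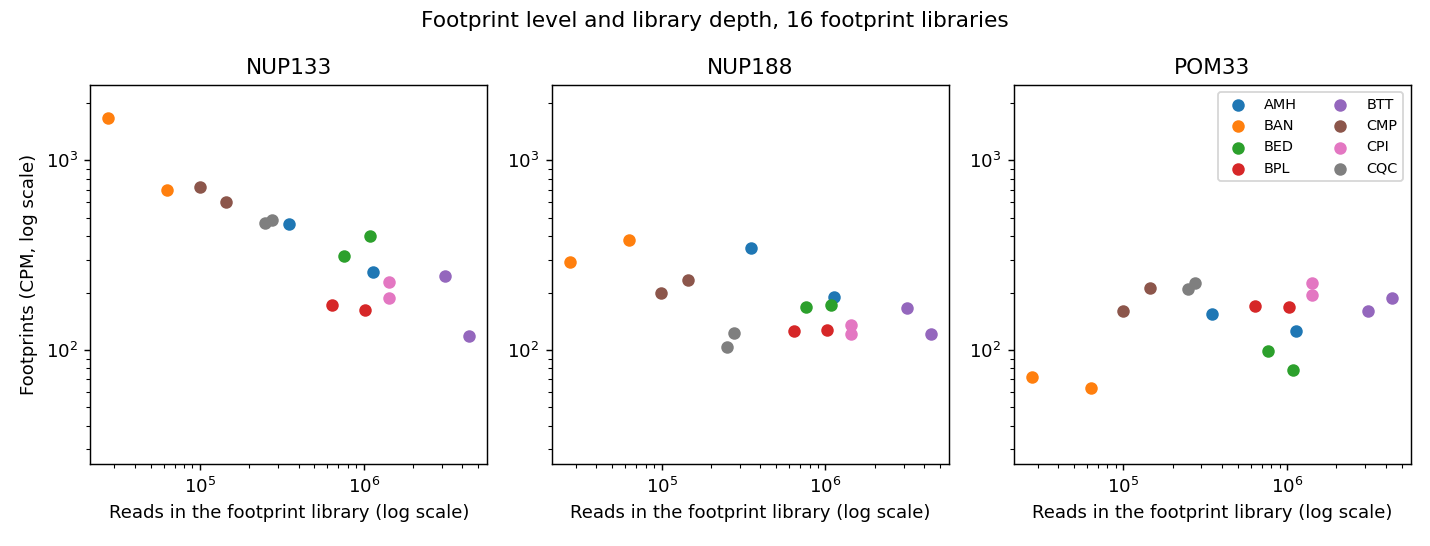
Footprint CPM of NUP133, NUP188 and POM33 in the 16 footprint libraries against the reads in the library, both on log axes, coloured by isolate. NUP133 falls from 1665 CPM in the shallowest library, of BAN, to 118 CPM in the deepest, of BTT, whereas POM33 is lowest in BAN and BED.

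NUP188 had TE higher in BAN (1.87, SE 0.31, adjusted p = 0.000103) and CQC (1.29, SE 0.25, adjusted p = 0.00128), and lower in BTT (-1.39, SE 0.19, adjusted p = 1.21e-05), BPL (-1.01, SE 0.20, adjusted p = 0.00241) and CPI (-0.96, SE 0.19, adjusted p = 0.00277). With the length trend removed the values in BAN, BPL and CPI were 0.60, -0.54 and -0.22 and not called, and that in BTT was -0.54. BAN was also not called without its first footprint library (1.41), nor CPI without its second (-0.83). The CQC value was 1.41 with the trend removed, and it was called under each alternative tried.

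POM33 had the highest mean TE of the pore genes and opposite calls in CQC. Its CQC mRNA was lower (-0.89, SE 0.20, adjusted p = 0.0012), its footprints higher (0.59, SE 0.18, adjusted p = 0.0101) and its TE higher by 1.48 (SE 0.28, adjusted p = 0.00104), the TE call standing under each alternative tried. The footprint call was lost with the length trend removed (0.41), without BAN (0.33) and without either CQC footprint library (0.58 and 0.54), and the mRNA call with libraries thinned to footprint depth (-0.42). In BAN its TE was lower (-1.79, SE 0.57, adjusted p = 0.0361), and not called without the length trend (-1.42), without the second BAN RNA library (-1.14), or without either BAN footprint library (-1.84 and -1.83).

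The remaining TE calls named by size were less stable. MLP2 was higher in AMH (1.58, SE 0.40, adjusted p = 0.0115), but not called without the first AMH footprint library (1.36). SEH1 was lower in BED (-0.77, SE 0.20, adjusted p = 0.0217), and not called without the second BED RNA library (-0.73), either BED footprint library (-0.74 and -0.81) or the first BAN one (-0.66). GLE2 was lower in BTT (-0.85, SE 0.21, adjusted p = 0.0101), and not called without the first BTT RNA library (-0.82), the second BTT footprint library (-0.76) or the first BAN one (-0.83). In CMP, NSP1 was lower (-1.25, SE 0.33, adjusted p = 0.0227) and NUP57 higher (0.98, SE 0.25, adjusted p = 0.0181), and neither was called without the first CMP RNA library (-1.09 and 0.92) or either CMP footprint library (-1.73 and -1.01 for NSP1, 1.17 and 0.79 for NUP57). NUP60 was higher in CPI (1.16, SE 0.30, adjusted p = 0.0198), and not called without the second CPI RNA library (1.08) or the second CPI footprint library (0.97). It was at 2.41 without the first BAN footprint library, which leaves BAN only a footprint library with 0 NUP60 reads. NUP120 was higher in CMP (1.06, SE 0.31, adjusted p = 0.0434), at 1.65 without the first CMP footprint library, and the call was lost under 20 of 38 alternatives, among them at 0.38 without the second.

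Levels were compared between genes per coding length, as reads per kilobase scaled to the same total in every library. In mRNA the mean over isolates ran from 8.87 for NUP42 to 140 for NUP57, a 15.8-fold span. POM34 at 107 and NUP2, a mobile basket nucleoporin, at 106 came next. The median was 52.2 for the pore genes and 47.4 for the 6269 genes tested in mRNA. In footprints the span was 34.6-fold, from 4.95 for MLP2 to 172 for POM33. The medians there were 22.8 for the pore genes and 32.7 for the 5347 genes tested in footprints, a smaller set. NUP133 was second at 118, a value that holds the depth-linked libraries above.

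The order of genes in footprints was not that in mRNA. Mean TE, the log2 ratio of the 2, was highest for POM33 (1.99, SD 0.78 over 8 isolates, at the 96.1 percentile of all genes tested), NUP133 (1.05, SD 1.32) and NUP42 (0.89, SD 0.89), whose ranges of 1 SD overlap. It was lowest for MLP2 (-2.38, SD 0.63, at the 1.37 percentile) and MLP1 (-2.14, SD 0.41). The median over the 32 genes was -1.07, below the -0.55 of all genes, but genes of at least 1000 codons as a whole had a median of -1.22, the same as the 13 pore genes of that length.

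**Figure D5:**
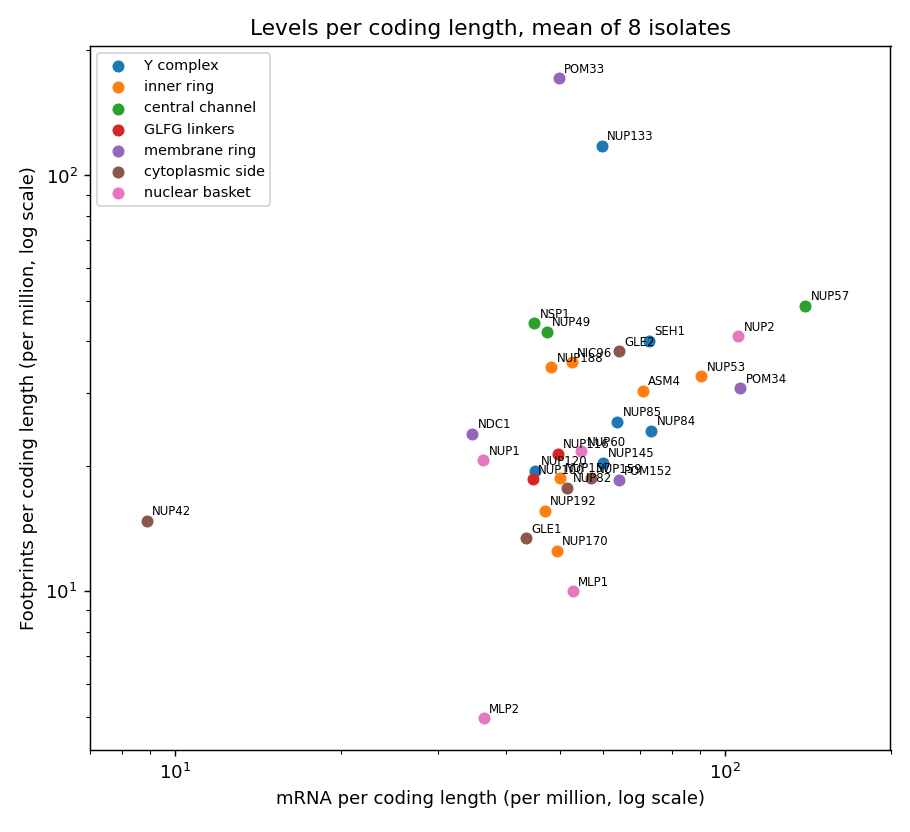
Mean level over the 8 isolates per coding length, mRNA against footprints, both on log axes, for the 32 pore genes coloured by place in the pore. POM33 and NUP133 lie above the rest in footprints, MLP2 and MLP1 below, and NUP42 is far to the left.

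Subunits of 1 place in the pore were not equal in level. The SD of log2 level per length among genes of a place, averaged over isolates, was 0.986 in mRNA and 0.440 in footprints for the 3 channel genes, and footprints were less spread in 8 of 8 isolates. On the cytoplasmic side it was 1.18 and 0.744, less spread in footprints in 7 of 8 isolates. Most other places, and the 32 genes as a whole, were more spread in footprints. Over all 32 the SD was 0.766 in mRNA and 1.05 in footprints, with footprints less spread in 0 of 8 isolates. It was 0.525 and 0.737 in the inner ring, 0.808 and 1.47 in the membrane ring, 0.730 and 1.29 in the nuclear basket, and 0.364 and 1.01 in the Y complex, or 0.383 and 0.599 there with NUP133 left out. The GLFG linkers were about equal, at 0.269 and 0.265. These are descriptions of 2 to 7 genes each and no test of the difference was made. The spread over all genes was not computed. Counting error in shallow libraries enters the footprint SD and was not separated from it. Over all 32 genes that SD was 1.406 in CQC, 1.265 in BAN and 0.8225 in BTT, whose footprint libraries were the deepest.

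Transport factors that use the pore, and genes of pore assembly and pore partners, gave similar counts. Of 43 genes in 4 lists, 42 were called over the isolates in mRNA, 36 in footprints and 12 in TE, against the 95.7%, 73.1% and 29.2% given above. In CQC the mRNA of 12 of 15 karyopherins (the transport receptors) and of 7 of 8 genes of the Ran cycle was lower, with medians of -0.66 and -0.91, where 37.1% of all genes were lower. The other lists were mixed in CQC, with 3 higher and 6 lower of 10 mRNA export genes (median -0.47) and 5 higher and 4 lower of 10 pore assembly genes and partners (0.38). In BAN 14 of 15 karyopherins were lower (median -0.82, with 33% of all genes lower), while the Ran cycle had 2 higher and 2 lower, mRNA export 4 and 4, and pore assembly 2 and 4. In AMH 13 of 15 karyopherins (0.67) and 7 of 8 Ran cycle genes (0.60) were higher, with 33.4% of all genes higher, against 5 of 10 in mRNA export and 3 of 10 in pore assembly. The length trend was not removed for these 4 lists. All genes of at least 1000 codons had mRNA medians of -0.56 in BAN, -0.36 in CQC and -0.33 in AMH. The widest mRNA ranges in each list were those of KAP114, an importin (3.10 on the log2 scale, from 17.5 CPM in CQC to 166 in AMH), and PDR6 (2.18, from 20.6 CPM in BAN to 103 in CPI) among karyopherins. In the Ran cycle they were RNA1, the Ran GTPase-activating protein (1.77, from 93.5 CPM in CQC to 357 in AMH), and NTF2, the import factor of Ran (1.71, from 29.6 CPM in CQC to 98.3 in CMP). Among mRNA export genes they were CDC31, the yeast centrin (3.83, from 19.3 CPM in CPI to 236 in BAN), and SUB2, an RNA helicase of mRNA export (2.30, from 159 CPM in CQC to 871 in AMH). In the list of pore assembly and partners they were APQ12, an envelope membrane protein (3.09, from 7.52 CPM in CQC to 78.8 in BED), and HEH1, an inner nuclear membrane protein (2.37, from 58.4 CPM in AMH to 257 in BAN).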

How the data were processed

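Reads per open reading frame were deposited by the authors as raw counts, with coding codons less 10 beside them, for 16 RNA and 16 footprint libraries. Per the labels' protocols, cells were filtered, lysates digested with RNase I, ribosomes pelleted and ribosomal RNA depleted, and RNA libraries were made with a stranded kit. The submitters' processing notes name CASAVA 1.8, STAR 2.7.0a and the sacCer3 build. The counting tool, annotation and the handling of reads that match several places were not stated in the sources used, so paralogs may share reads. Gene symbols and coordinates came from RefSeq R64.

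Counts were filtered with filterByExpr (minimum count 10), scaled by TMM within each assay and tested with edgeR 4.0.16 in R 4.3.3 by quasi-likelihood F-tests, with Benjamini-Hochberg adjustment over all genes at 0.05. Tests compared the 8 isolates together, and each isolate with the mean of the other 7. TE was the interaction of assay and isolate over all 32 libraries. SE is the fold change divided by the square root of F. CPM scale each library to the same total. The slope used TMM log2 CPM with a prior count of 2 and products across replicates. Alternatives were DESeq2 1.42.0 and its size factors, no filter, removal of each library's loess trend with coding length, thinned RNA libraries, a replicate block and each library left out. Leaving out BAN, NUP133 or NUP188 was chosen after seeing the data. Genes described per library were the member of each place with the widest mRNA range, that with the widest TE range, and paralogs. Contrasts were described for up to 3 called genes per isolate and layer, by size. Transport genes were the 2 widest in mRNA per list. The members and lists were chosen with earlier results of these data known. Other genes named in CQC and with opposite calls were chosen after their values were seen. No sequence is printed.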

Additional observations from a re-analysis of the deposited data

Results flagged for a closer look

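In 4 pairs of gene and isolate, mRNA and footprints were called in opposite directions against the other isolates. The difference itself was tested as translation efficiency, the interaction of assay and isolate in edgeR's quasi-likelihood F-test. NUP133 in BAN had an efficiency difference of 2.31 (SE 0.34, adjusted p = 2.13e-05), with mRNA at -0.84 and footprints at 1.47. NUP133 in BTT had -1.96 (SE 0.27, adjusted p = 1.7e-05), with mRNA at 0.81 and footprints at -1.15. NUP133 in CPI had -1.36 (SE 0.27, adjusted p = 0.00264), with mRNA at 0.58 and footprints at -0.78. POM33 in CQC had 1.48 (SE 0.28, adjusted p = 0.00104), with mRNA at -0.89 and footprints at 0.59. The footprint calls of NUP133 in BAN and CPI and of POM33 in CQC were each lost when a library of that isolate was left out, and the NUP133 mRNA calls were lost with the length trend removed. NUP133 footprints moved with library depth, and the part of depth in these results was not tested.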

How the results depend on the processing

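Beside the number of pore genes called against the other isolates in the results above, these settings moved a count by over 1.5 times, and the cause was not tested. With the coding length trend removed, the counts were 14 in BTT mRNA, 17 in CMP mRNA, 8 in AMH footprints, 1 in BAN footprints, 2 in AMH TE, 1 in BAN TE and 1 in BPL TE. Without BAN, an alternative chosen after seeing the data, the counts were 19 in CMP mRNA, 5 in BED footprints, 8 in CPI footprints, 2 in AMH TE and 5 in CMP TE. With RNA libraries thinned to footprint depth, the counts were 5 in BAN mRNA and 0 in CMP mRNA. By the DESeq2 test, the counts were 1 in BAN footprints, 3 in AMH TE and 2 in BED TE. With DESeq2 size factors, the counts were 2 in AMH TE and 2 in BED TE. With the replicate number as a block, the counts were 4 in AMH TE, 2 in BED TE and 5 in BPL TE. In BAN, mRNA values changed sign with the length trend removed, to 0.0119 for NUP159, 0.50 for NUP145, 0.25 for NUP170, 0.41 for POM152, 0.20 for NUP100, 0.18 for NUP157 and 0.0402 for NUP188. In BTT, mRNA values changed sign with the length trend removed, to -0.43 for NUP159, -0.23 for NUP145, -0.16 for NUP170, -0.20 for NUP192, -0.15 for POM152, -0.59 for MLP1, -0.0798 for MLP2, -0.0909 for NUP157 and -0.0561 for NUP188. In CMP, mRNA values changed sign with the length trend removed, to 0.37 for NUP159, 0.45 for NUP192 and 0.45 for NUP188. In CPI, mRNA values changed sign with the length trend removed, to -0.68 for NUP159, -0.51 for NUP145, -0.64 for NUP170, -0.17 for NUP116, -0.58 for NUP192, -0.53 for POM152, -1.07 for MLP1, -0.38 for MLP2, -0.0474 for NUP120, -0.56 for NUP157, -0.80 for NUP188 and -0.22 for NUP133. The trend taken out could exceed the median of genes of like length, as for NUP116, NUP120 and NUP133 in CPI. A changed sign therefore does not show a level below that of such genes. In CQC, mRNA values changed sign with the length trend removed, to 0.12 for MLP1. In BAN, mRNA values changed sign at thinned depth, to -0.0745 for ASM4 and 1.12 for NUP60. In CMP, mRNA values changed sign at thinned depth, to 0.0987 for SEH1, 0.64 for GLE2 and 0.61 for NUP49. In BTT, TE values changed sign with the length trend removed, to 0.0943 for NUP157. Leaving out each library in turn, the mRNA counts ran from 31 to 32 among the isolates, 15 to 24 in AMH, 24 to 26 in BAN, 18 to 27 in BED, 7 to 21 in BPL, 18 to 27 in BTT, 5 to 14 in CMP, 14 to 23 in CPI and 26 to 29 in CQC. Leaving out each library in turn, the footprint counts ran from 17 to 24 among the isolates, 2 to 8 in AMH, 0 to 2 in BAN, 3 to 9 in BED, 1 to 6 in BPL, 8 to 15 in BTT, 0 to 3 in CMP, 1 to 9 in CPI and 9 to 17 in CQC. Leaving out each library in turn, the TE counts ran from 4 to 12 among the isolates, 0 to 3 in AMH, 1 to 5 in BAN, 0 to 2 in BED, 1 to 4 in BPL, 2 to 4 in BTT, 0 to 3 in CMP, 0 to 3 in CPI and 3 to 4 in CQC. The counts for a left-out library of the isolate itself assume that its lone library varies like the others. Without CQC the slope was 0.422, and under the other settings it ran from 0.480 (prior count 8) to 0.698 (without NUP133 and NUP188). The main fits did not pair libraries by replicate number, and whether the numbers pair them was not settled. Deviations of same-numbered mRNA libraries of different isolates correlated from -0.623 to 0.441 (median 0.0405). RNA with footprint libraries of the same isolate and number correlated from 0.0822 to 0.720 in 8 pairs (median 0.342). The latter are all positive, but not every pair exceeds 0.1, and the labels do not say that a number is shared. With the block 11 pore genes and 43.8% of all genes were called in TE among the isolates, against 8 and 29.2%, and DESeq2 called 12 and 39.2%. Among single genes and isolates in the other settings, runs without BAN included, 1001 mRNA, 301 footprint and 112 TE values kept direction and call. A further 106, 27 and 15 lost the call, and 37 mRNA values and 1 TE value changed sign. With a library left out the numbers were 2529, 794 and 615 kept and 143, 86 and 89 lost. With thinning, the CMP mRNA count of 0 is edgeR's, with 1 gene at an unadjusted p under 0.05. Without a library, counts of 0 came with 2 to 6 such genes, and DESeq2 was not run on either.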
